A study of Mus musculus with 12 samples.

Results

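The immunoglobulin heavy constant genes Ighm, Ighd, Ighg1, Ighg2b, Ighg2c, Ighg3, Igha and Ighe, together with Jchain, were followed in bulk RNA sequencing of mouse dorsal meninges after a mild head injury and in ageing. These 9 genes were taken by name from the 55385 rows of the count table, and all 9 passed the filter on low counts, as did 18238 genes in all. The 12 libraries fell into 4 groups of 3, namely Aged TBI, Aged Sham, Young TBI and Young Sham. All mice were male C57BL/6 (C57BL/6J for the young mice) with no transgene named, and young mice were 10 weeks and aged mice 20 to 24 months old. TBI was a single closed-skull impact over the right inferior temporal lobe, and sham mice had the anaesthesia without contact. Tissue was collected 1.5 months later from perfused mice by scraping the dorsal skullcap, so the site of impact was not in the sample. Each library was a pool of the meninges of 2 to 3 mice, the descriptions differing on the number. Aged mice came from a different colony than young mice, so colony and age cannot be told apart.

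A B cell first makes IgM and IgD from the heavy constant genes nearest the variable region, and class switching later joins the same variable region to one of the genes downstream, giving IgG, IgE or IgA. Plasma cells, the antibody-secreting end stage, make very large amounts of these transcripts, and the meninges are known to house plasma cells, many of them making IgA, along the venous sinuses. The J chain is a small protein that joins IgM or IgA units into polymers and is needed for their carriage across epithelia.

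On GRCm38 with GENCODE release M21, the 8 heavy constant genes lay on the minus strand of chromosome 12. Read from the variable side, the order was Ighm (113418558 to 113422730), Ighd (113406604 to 113416324), Ighg3 (113356224 to 113361232), Ighg1 (113325240 to 113330523), Ighg2b (113302965 to 113307933), Ighg2c (113285325 to 113288932), Ighe (113269260 to 113273248) and Igha (113254830 to 113260236). Jchain lay on chromosome 5 (88519809 to 88527891, minus strand). C57BL/6 mice carry Ighg2c at the place where some other strains carry Ighg2a.

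The hinge exons of the 4 IgG genes, which link the arms of the antibody to its stem, differ in length and in part in their number of cysteine codons. They are printed 5′ to 3′ on the coding strand with the in-frame cysteine codons in capitals. They lie at chr12:113329844-113329882 (Ighg1), chr12:113307261-113307326 (Ighg2b), chr12:113288263-113288325 (Ighg2c) and chr12:113360529-113360576 (Ighg3).
Ighg1: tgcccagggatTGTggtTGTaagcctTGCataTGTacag
Ighg2b: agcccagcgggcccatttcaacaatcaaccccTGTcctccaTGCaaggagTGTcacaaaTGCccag
Ighg2c: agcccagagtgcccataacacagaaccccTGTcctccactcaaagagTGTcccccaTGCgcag
Ighg3: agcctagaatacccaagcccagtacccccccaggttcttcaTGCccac
The exons are 39, 66, 63 and 48 bases long in this order and hold 4, 4, 3 and 1 cysteine codons.

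The last 60 coding bases of the secreted forms of Ighm and Igha encode the tail through which each is joined to the J chain, and are shown because Jchain was measured against these 2 genes. The capitals mark the cysteine codon next to last before the stop codon. They lie at chr12:113420867-113420926 (Ighm) and chr12:113258768-113258827 (Igha).
Ighm: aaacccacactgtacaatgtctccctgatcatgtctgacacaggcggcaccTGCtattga
Igha: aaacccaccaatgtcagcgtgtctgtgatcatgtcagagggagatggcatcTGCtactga

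Reads of similar genes can be split between them. The secreted transcripts of Ighg2b and Ighg2c were the most alike, with 86.8% identity and a longest identical run of 78 bases, while the other pairs of IgG genes had 75.8% to 78.1%. Of all stretches of 50 bases, 5.26% in Ighg2b and 5.27% in Ighg2c occurred in the other gene, and no stretch of 100 bases was shared between any of the 9 genes. How the counting treated reads that fit both was not tested.

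Total counts ran from 8092374 to 16087717 per library. The heavy constant genes took 0.174% to 0.368% of counts in the 6 aged libraries, against 0.0208% to 0.0463% in the 6 young ones. Markers of the labelled tissue were present in every library, with summed levels of 10355 to 11865 CPM in aged and 15499 to 19372 CPM in young libraries (TMM-normalised read counts scaled to a common library size) for 10 fibroblast genes and 521 to 816 CPM for 6 macrophage genes. Aged Sham 3 stood apart in summed pituitary and bone markers. It held 1042 CPM over 4 pituitary genes (3.68 to 15.5 CPM elsewhere) and 1136 CPM over 5 bone genes (194 to 373 CPM elsewhere). Nearly all of the first sum was Gh (1033 CPM) and most of the second was Ibsp (973 CPM). In Aged Sham, Prl, Cga and Pomc stayed at or below 7.04 CPM, and Dmp1 reached 67.9 CPM. Bglap, Bglap2 and Sp7 had lower means in Aged Sham than in either young group. Among the genes followed here, Young Sham 2 stood apart in Ighg2c and Ighg3, and Aged TBI 1 in Ighm, Ighg3 and Jchain. Results that rest on these libraries are given with and without them.

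Ighm, Ighg1, Ighg2b, Igha and Jchain rose with age in mice of both procedures. In mice with TBI, edgeR's quasi-likelihood test over all genes, at a Benjamini-Hochberg adjusted p under 0.1, called all 9 higher and 0 lower in Aged TBI relative to Young TBI, where 9.92% of all genes were called higher and 10.3% lower. In sham mice it called 5 of 9 higher and 0 lower (the 5 just named), where 7.89% of all genes were called higher and 7.71% lower. DESeq2 called 7 of 9 higher in sham mice and 8 in TBI mice, and a fit of only the 2 groups compared called 7 in each. Aged TBI 2 is in neither sham group and enters that comparison only through the joint fit of all libraries. Without Aged TBI 2 the count in sham mice was 8, with Ighd at 0.96 ± 0.19 (log2, SE) against 0.97 ± 0.36 with all libraries. Ighe had 0 counts in every young library and passed the filter only through aged ones, so its call is a comparison with 0 counts, and without it 8 of 8 were called in TBI mice and 5 of 8 in sham mice. Of these 8 genes, the libraries of 7 did not overlap between Aged TBI and Young TBI, against 18.6% of all genes, and likewise 7 between Aged Sham and Young Sham, against 14.4%. The study named several of these genes from the same libraries, so the counts are not independent evidence. The median log2 fold change over the 9 genes was 4.55 with TBI and 2.61 in sham mice, against 0.02 and 0.01 over all genes tested. With Ighe at the lower bound given further on, the medians were 3.82 and 2.61, and without Ighe 4.12 and 2.36. In bulk tissue, more antibody-making cells and more of these transcripts per cell cannot be told apart.

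**Figure D1:**
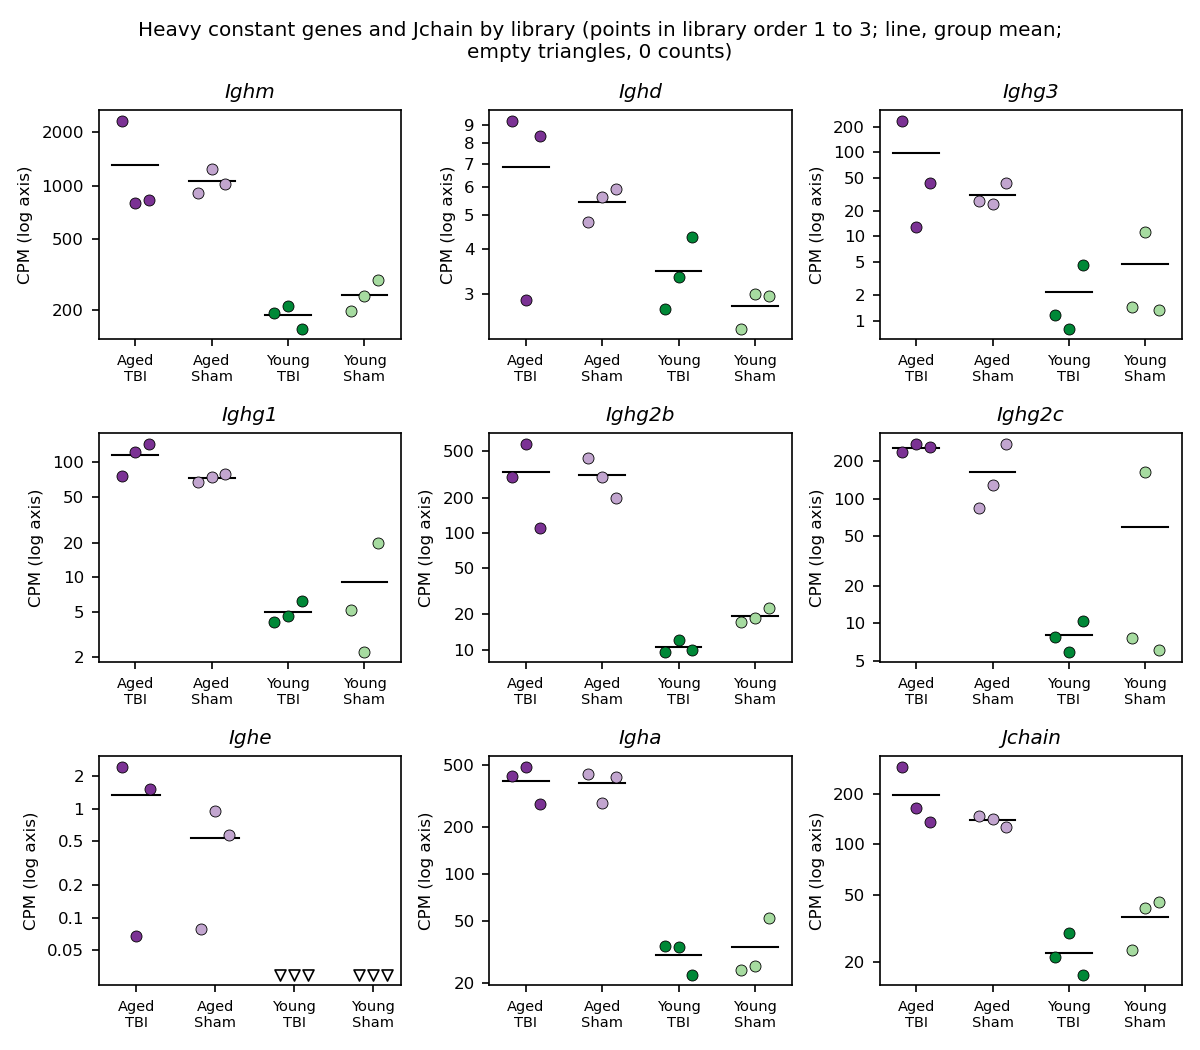
CPM (log axis) of each gene in every library, by group, with libraries 1 to 3 from left to right, a line at the group mean and empty triangles for 0 counts. Aged libraries lie above young ones for 6 of the 8 genes with counts in young libraries, the exceptions being Ighd through Aged TBI 2 and Ighg2c through Young Sham 2.

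Ighm, which encodes the heavy chain of IgM, was the most abundant heavy constant gene in every library. It stood at 2321, 795 and 831 CPM in Aged TBI 1 to 3 and at 914, 1239.7 and 1025 CPM in Aged Sham 1 to 3, against 192, 211 and 157 CPM in Young TBI 1 to 3 and 198, 239 and 294 CPM in Young Sham 1 to 3. All aged libraries lay above all young ones, and Aged TBI 1 held 2.85 times the mean of the other 2 in its group. The log2 fold change with age was 2.82 ± 0.36 (SE, adjusted p = 0.00107) with TBI and 2.12 ± 0.35 (adjusted p = 0.00451) in sham mice. Without Aged TBI 1 the value with TBI was 2.11 (adjusted p = 0.000301).

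Ighd, whose IgD product sits on mature B cells beside IgM and is hardly secreted, differed least. It stood at 9.26, 2.88 and 8.37 CPM in Aged TBI and 4.77, 5.64 and 5.92 CPM in Aged Sham, against 2.71, 3.35 and 4.34 CPM in Young TBI and 2.38, 2.99 and 2.95 CPM in Young Sham. Aged TBI 2 lay among the young libraries, while the 2 sham groups did not overlap. The log2 fold change was 0.99 ± 0.35 with TBI (adjusted p = 0.0847) and 0.97 ± 0.36 in sham mice (adjusted p = 0.113). These sizes are close, and the call in TBI mice was lost without Aged TBI 1 (0.70, adjusted p = 0.275) and under most other alternatives, so Ighd was near the threshold in both.

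Igha, the heavy chain of IgA, had the smallest adjusted p in both comparisons. It stood at 423, 488 and 279.6 CPM in Aged TBI and 438, 285 and 419 CPM in Aged Sham, against 34.5, 33.9 and 22.6 CPM in Young TBI and 24.0, 25.8 and 51.8 CPM in Young Sham. Every aged library held more than 5 times the level of any young one. With age it rose by 3.70 ± 0.32 (log2) with TBI (adjusted p = 0.000234) and 3.49 ± 0.31 in sham mice (adjusted p = 0.000272).

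Ighg2b, one of the IgG genes, was among those that differed most with age. It stood at 299, 583 and 111 CPM in Aged TBI and 443, 299.9 and 199 CPM in Aged Sham, against 9.59, 12.03 and 9.95 CPM in Young TBI and 17.2, 18.6 and 22.7 CPM in Young Sham. Aged TBI 2 was the highest and Aged TBI 3 the lowest aged library, and none came near the young range. The rise with age was 4.96 ± 0.55 (log2) with TBI (adjusted p = 0.000636) and 4.01 ± 0.51 in sham mice (adjusted p = 0.00126).

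Ighg1, the IgG gene favoured by interleukin 4, followed the same pattern. It stood at 76.1, 123 and 146 CPM in Aged TBI and 67.3, 73.9 and 79.7 CPM in Aged Sham, against 4.07, 4.62 and 6.25 CPM in Young TBI and 5.15, 2.24 and 19.9 CPM in Young Sham. Young Sham 3 was the highest young library, at 5.40 times the mean of the other 2 in its group. The log2 fold change was 4.55 ± 0.56 with TBI (adjusted p = 0.000884) and 3.04 ± 0.50 in sham mice (adjusted p = 0.00445). Without Young Sham 3 the sham value was 4.38 (adjusted p = 0.000715).

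Ighg2c, the IgG gene favoured by interferon gamma, turned on 1 library in sham mice. It stood at 237, 272 and 259 CPM in Aged TBI and 84.4, 128 and 276 CPM in Aged Sham, against 7.75, 5.90 and 10.5 CPM in Young TBI and 7.53, 164 and 6.06 CPM in Young Sham. Young Sham 2 held 24.1 times the mean of the other 2 in its group and overlapped the aged range. The log2 fold change was 5.03 ± 1.09 with TBI (adjusted p = 0.0123), and 1.43 ± 0.87 in sham mice (adjusted p = 0.34). Without Young Sham 2, the value in sham mice was 4.58 (adjusted p = 0.00156).

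Ighg3, an IgG gene often used against bacterial sugars, varied widely between libraries, the highest Aged TBI library holding 18.3 times the lowest. It stood at 239, 13.01 and 43.4 CPM in Aged TBI and 26.1, 24.3 and 43.4 CPM in Aged Sham, against 1.16, 0.797 and 4.59 CPM in Young TBI and 1.43, 11.4 and 1.35 CPM in Young Sham. Aged TBI 1 and Young Sham 2 were again the high libraries, and neither age group overlapped the other. The log2 fold change was 5.67 ± 1.20 with TBI (adjusted p = 0.0108) and 2.61 ± 1.02 in sham mice (adjusted p = 0.132). Without Young Sham 2 the sham value was 4.48 (adjusted p = 0.0886), and without Aged TBI 1 the value with TBI was 3.83, still called.

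Ighe, the heavy chain of the mast cell binding IgE, was detected only in aged libraries, at very low counts. It had 40, 1 and 20 counts (2.44, 0.0685 and 1.52 CPM) in Aged TBI and 1, 14 and 7 counts (0.0782, 0.952 and 0.568 CPM) in Aged Sham, against 0 counts in all 6 young libraries. A count of 0 allows up to 3 counts, which is 0.204 to 0.383 CPM in a young library, so the aged libraries with 1 count lie below what could be seen in the young. Over whole groups and against 3 counts per group, Ighe was at least 14.1-fold higher in Aged TBI than in Young TBI and at least 6.83-fold higher in Aged Sham than in Young Sham. Without Aged TBI 1, which held 40 of 61 counts, the first bound was 7.75-fold, and without Aged Sham 2, which held 14 of 22, the second was 3.94-fold. By edgeR the adjusted p was 0.0706 with TBI and 0.188 in sham mice, in each case against 0 counts.

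Jchain, which lies outside the heavy chain locus, also rose. It stood at 291, 165 and 135 CPM in Aged TBI and 148, 142 and 127 CPM in Aged Sham, against 21.2, 29.7 and 16.7 CPM in Young TBI and 23.4, 41.7 and 45.3 CPM in Young Sham. The lowest aged library held more than 2 times the level of the highest young one. On the log2 scale the rise with age was 3.11 ± 0.32 with TBI (adjusted p = 0.000491) and 1.91 ± 0.30 in sham mice (adjusted p = 0.00344). Without Aged TBI 1 the value with TBI was 2.70, still called.

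**Figure D2:**
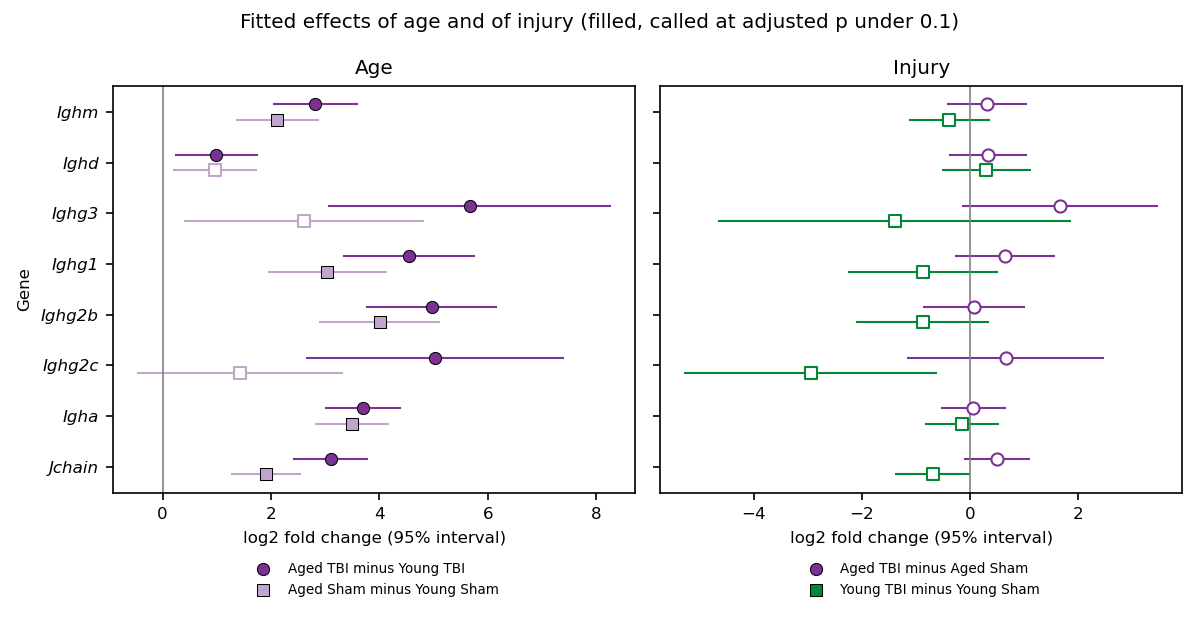
Log2 fold changes with 95% intervals for 8 genes, with age on the left and injury on the right, filled where called at an adjusted p under 0.1. Ighe is left out because all young libraries held 0 counts. All age estimates lie above 0, and no injury estimate is called.

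Levels of different genes were compared per kilobase of exon, taking all annotated exons. Ighm led in all 4 groups, with 698 ± 462 CPM per kilobase in Aged TBI, 562 ± 87.8 in Aged Sham, 98.8 ± 14.5 in Young TBI and 129 ± 25.6 in Young Sham (SD, n = 3). In Aged Sham the next genes were Igha (143 ± 31.3), Ighg2c (123 ± 75.8) and Ighg2b (117 ± 45.7), whose ranges overlapped, followed by Jchain (55.2 ± 4.41). In Young Sham they were Ighg2c (44.6 ± 68.4, with Young Sham 2 at 124), Jchain (14.6 ± 4.67), Igha (12.7 ± 5.84) and Ighg2b (7.28 ± 1.08). The order of Ighg2b and Ighg2c depends on the length taken, since their annotated exons cover 2678 and 1326 bases and their secreted transcripts 1114 and 1111. Per kilobase of the secreted transcript, a length chosen after the data were seen, Ighm again led in all groups, and Ighg2b stood at 282 ± 110 and Ighg2c at 146.5 ± 90.5 in Aged Sham.

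The make-up of the heavy constant transcripts also differed with age. Of 14 measures of level and composition tested by an exact permutation test over the 12 libraries (two-sided, labels permuted within TBI and within sham, 400 relabellings, smallest p 0.005), 9 differed with age at a p adjusted over 28 tests under 0.1, of which 1 is the summed level and 1 the Ighe share, a comparison with 0 counts in all young libraries. That count was 3 without any 1 of the Young TBI libraries and 5 without Young Sham 1, and the cause was not tested. The 14 measures are built from the same gene levels, so they are not independent of each other. The summed heavy constant level was 2521 ± 986 CPM in Aged TBI, 2028 ± 43.6 CPM in Aged Sham, 246 ± 28.6 CPM in Young TBI and 373 ± 107 CPM in Young Sham, a mean difference with age of 2.89 on the log2 scale (exact p = 0.005, adjusted p = 0.0233). It was higher in 6 of 6 aged libraries.

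Ighm, though higher in level, was a smaller share of the sum in aged meninges. It made up 64.4%, 34.9% and 49.5% in Aged TBI and 46.2%, 60.3% and 50.01% in Aged Sham, against 76.2%, 77.7% and 72.9% in Young TBI and 77.4%, 51.5% and 73.7% in Young Sham. The mean share was 20.7 percentage points lower with age (difference -20.7, exact p = 0.015, adjusted p = 0.06). The call was lost under 7 of 17 alternatives. Young Sham 2, at 51.5% (Wilson 95% interval 50.3% to 52.7%, counting error only), lay inside the aged range.

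The shares of Ighg2b and Igha were larger in aged meninges, with calls that depended on the libraries included. The Ighg2b share was 8.29%, 25.6% and 6.61% in Aged TBI and 22.4%, 14.6% and 9.73% in Aged Sham, against 3.81%, 4.43% and 4.63% in Young TBI and 6.71%, 4.01% and 5.69% in Young Sham, a difference of 9.65 points (exact p = 0.005, adjusted p = 0.0233). The Igha share was 16.6% ± 4.86 in Aged TBI and 18.8% ± 4.38 in Aged Sham, against 12.2% ± 1.61 in Young TBI and 9.31% ± 3.72 in Young Sham, a difference of 6.94 points (SD, n = 3, exact p = 0.02, adjusted p = 0.07). The Ighg2b call was lost without Young TBI 1, 2 or 3 (adjusted p = 0.117, 0.112 and 0.112 by the exact test), while the difference stayed at 9.53, 9.68 and 9.73 points. Aged TBI 1 had an Igha share of 11.7%, within the range of Young TBI, and the Igha call was lost under 8 of 17 alternatives, with adjusted p up to 0.14.

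The 4 IgG genes together made up 23.6%, 43.5% and 33.3% in Aged TBI and 31.4%, 25.6% and 29.2% in Aged Sham, against 8.97%, 8.61% and 14.5% in Young TBI and 12.2%, 42.3% and 12.5% in Young Sham. The difference of 14.6 points did not pass (exact p = 0.05, adjusted p = 0.14), with Young Sham 2 inside the aged range. Without Young Sham 2 it was 19.5 points and passed (adjusted p = 0.0233). In that library Ighg2c alone took 35.3% of heavy constant counts (Wilson 95% interval 34.2% to 36.5%), against 2.95% and 1.52% in Young Sham 1 and 3. Shares of Ighg1 (difference 2.22 points, adjusted p = 0.21), Ighg2c (1.33 points, adjusted p = 0.9) and Ighg3 (1.36 points, adjusted p = 0.42) did not pass by the exact test. By the same test, the Ighg2c share differed by 6.85 points and passed without Young Sham 2 (adjusted p = 0.0525). The Ighg1 share differed by 3.05 points and passed without Aged TBI 1 (adjusted p = 0.084).

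**Figure D3:**
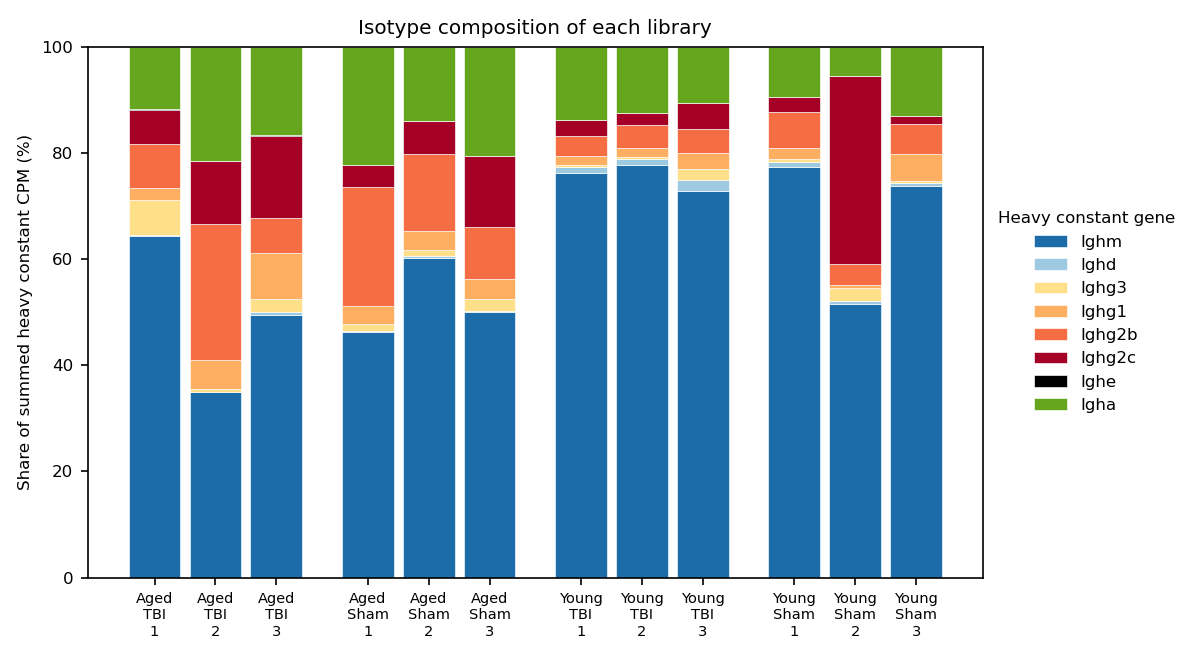
Share of each heavy constant gene in the summed heavy constant CPM of each library (%), stacked in the order of the locus from Ighm at the bottom. Ighm fills 72.9% to 77.7% of the Young TBI bars and 34.9% to 64.4% of the Aged TBI bars, and the Ighg2c block of 35.3% marks Young Sham 2.

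Ratios between genes do not depend on the sum, but they are built from the same levels as the shares and are not separate evidence. The log2 ratio of Igha to Ighm averaged -1.58 ± 0.88 in Aged TBI and -1.49 ± 0.56 in Aged Sham, against -2.64 ± 0.16 in Young TBI and -2.92 ± 0.37 in Young Sham (SD, n = 3), a difference of 1.24 with age (exact p = 0.005, adjusted p = 0.0233). The call for Igha to Ighm was lost without Young TBI 1, 2 or 3 (adjusted p = 0.105 in each by the exact test), while the difference stayed at 1.28, 1.24 and 1.205. The ratio of the IgG sum to Ighm was 1.64 higher (exact p = 0.025, adjusted p = 0.0778), a call lost under 9 of 17 alternatives. The ratio of Ighd to Ighm moved the other way, with means of -7.57 in Aged TBI and -7.60 in Aged Sham, against -5.77 in Young TBI and -6.45 in Young Sham, a difference of -1.48 (exact p = 0.005, adjusted p = 0.0233). Aged libraries ran from -8.11 to -6.63 and young ones from -6.64 to -5.17, so the highest aged and the lowest young library were level.

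For Jchain, set against the genes whose products it joins, no difference with age was detected. The log2 ratio of Jchain to Ighm plus Igha was -3.24, -2.96 and -3.04 in Aged TBI and -3.19, -3.42 and -3.51 in Aged Sham, against -3.42, -3.04 and -3.42 in Young TBI and -3.25, -2.67 and -2.93 in Young Sham. These ranges overlapped throughout, and the difference with age was -0.11 (exact p = 0.515, adjusted p = 0.798). That value averages opposite signs, -0.42 between the sham groups and 0.21 between the TBI groups (exact p = 0.2 in both, with 0.1 the smallest possible). Over the 12 libraries the ratio stayed within a range of less than 1 log2 unit, while Jchain itself ran from 16.7 to 291 CPM.

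**Figure D4:**
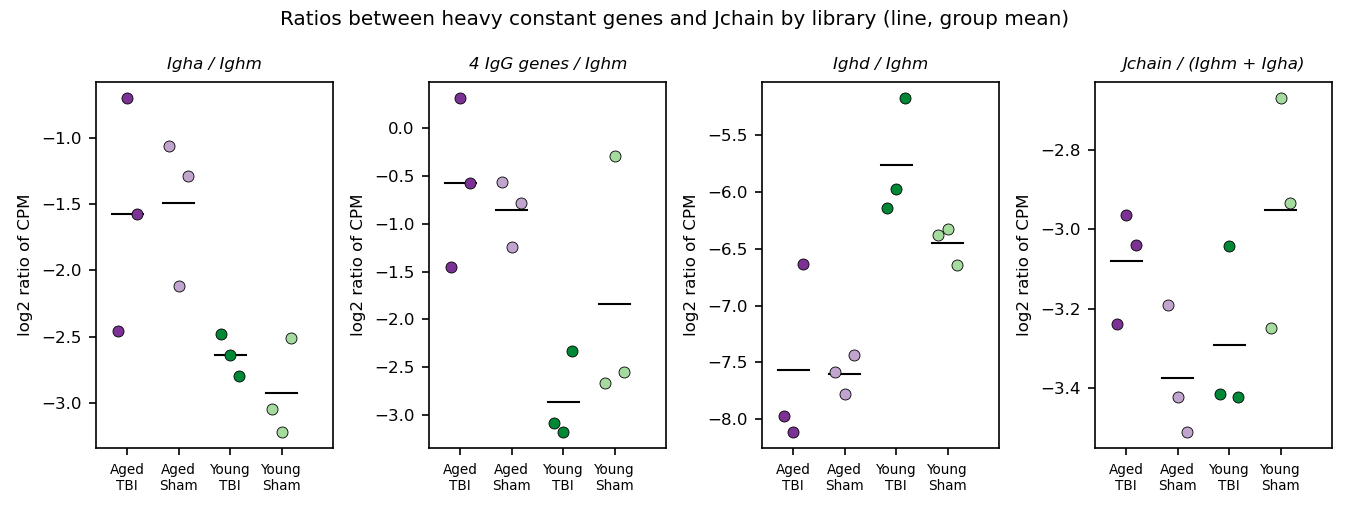
Log2 ratios of CPM in each library by group, with a line at the group mean, for Igha to Ighm, the 4 IgG genes to Ighm, Ighd to Ighm and Jchain to Ighm plus Igha. The first pair is higher and the third lower in aged libraries on average (differences of 1.24, 1.64 and -1.48), and the last overlaps in all groups.

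None of these genes was called with injury in mice of either age. In Aged TBI relative to Aged Sham, edgeR called 0 of 9, with 0 at an unadjusted p under 0.05, and DESeq2 called 0 with 0 at that level. Over all genes 0.389% were called higher and 1.26% lower, and 2633 of 18238 had an unadjusted p under 0.05 by edgeR. All 9 estimates were above 0, with a median of 0.50 against 0.01 over all genes, and they ran from 0.06 for Igha (95% interval -0.54 to 0.66) to 1.66 for Ighg3 (-0.15 to 3.48). Without Aged TBI 1 the estimates were -0.15 for Ighg3 and -0.38 for Ighm, and without Aged TBI 2 they were -0.62 for Ighg2b and -0.12 for Igha, so the common sign did not hold without either library. With all libraries the estimate was 0.50 for Jchain (-0.10 to 1.11) and for Ighg2c 0.66 (-1.17 to 2.49).

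In Young TBI relative to Young Sham, edgeR again called 0 of the 8 genes with counts in young mice, with 2 at an unadjusted p under 0.05, and DESeq2 called 0 with 1 at that level. Over all genes 0.00548% were called higher and 0% lower, and 757 of 18238 had an unadjusted p under 0.05 by edgeR. Of the 8 estimates, 7 were below 0, with a median of -0.78 against -0.0028 over all genes. At the unadjusted level these were Ighg2c (-2.95, 95% interval -5.29 to -0.61) and Jchain (-0.69), each with an adjusted p = 1 by edgeR. The Ighg2c estimate was 0.22 without Young Sham 2. Leaving out 1 library at a time, the estimate reached 0.48 for Ighg1, 0.49 for Ighg3 and 0.30 for Igha. The common sign therefore did not hold for these genes, while Ighm, Ighg2b and Jchain stayed below 0 throughout. Ighg2b, at 9.59 to 12.03 CPM in Young TBI and 17.2 to 22.7 CPM in Young Sham, was the only one whose libraries did not overlap (-0.88, 95% interval -2.11 to 0.35).

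The injury effect was not shown to differ between ages. The difference of the injury effects, tested as an interaction, was called for 0 of 8 genes by edgeR, with 2 at an unadjusted p under 0.05, and for 0 by DESeq2 with 2 at that level, where 0% of all genes were called higher and 0% lower. By edgeR, 1386 of the 18238 genes tested were at the unadjusted level. All 8 estimates were above 0, but both comparisons between ages and both between procedures share libraries, so these signs are not independent of those above. The 2 at the unadjusted level were Ighg2c (3.60, or 0.44 without Young Sham 2) and Jchain (1.20, or 0.79 without Aged TBI 1). Of the 14 measures of composition, 0 differed with injury by the exact permutation test at an adjusted p under 0.1, and 0 at an unadjusted p under 0.05. The smallest p was that of the Ighd share (0.35 points higher with TBI, exact p = 0.065, adjusted p = 0.165), which was 1.44% ± 0.50 in Young TBI and 0.771% ± 0.147 in Young Sham.

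Other genes of the antibody pathway gave a frame for these values. The light chain constant genes rose with the heavy ones, with 4 of 4 called higher with age in TBI mice and 3 of 4 in sham mice. Igkc, the kappa chain, averaged 769 ± 188 CPM in Aged TBI and 659 ± 22.7 CPM in Aged Sham, against 84.1 ± 13.2 CPM in Young TBI and 133 ± 37.7 CPM in Young Sham. The lambda gene Iglc1 rose by 2.86 ± 0.39 with TBI and 2.71 ± 0.38 in sham mice on the log2 scale.

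Plasma cell genes rose in part. Of 14, 8 were called higher and 1 lower with age in TBI mice (median 0.87) and 6 higher and 0 lower in sham mice (median 0.39). Their summed level overlapped between ages, at 416 to 555 CPM in aged and 410 to 442 CPM in young libraries. Xbp1, the most abundant of them, averaged 186 CPM in Aged TBI and 199 CPM in Aged Sham, against 191 CPM in Young TBI and 177 CPM in Young Sham. Pou2af1, a coactivator of immunoglobulin transcription, rose by 2.02 ± 0.29 with TBI and 1.67 ± 0.28 in sham mice. Derl3, which serves protein disposal from the endoplasmic reticulum of secretory cells, rose by 1.40 ± 0.26 and 1.22 ± 0.25, and Irf4, a regulator of plasma cell formation, by 1.14 ± 0.27 and 1.22 ± 0.27. Tnfrsf17, the survival receptor BCMA, rose by 1.16 ± 0.37 with TBI. The 1 lower gene was Creld2 (-0.26 ± 0.09). These changes were smaller than those of most heavy constant genes, for which the lowest of the called values in sham mice was 2.12, that of Ighm.

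Mature B cell genes behaved likewise, with 8 of 18 called higher with age in TBI mice (median 0.64) and 5 of 18 in sham mice (median 0.53), and 0 lower. Cd22, an inhibitory receptor of B cells, rose by 1.49 ± 0.35 with TBI and 1.42 ± 0.34 in sham mice. Fcmr, the receptor for IgM, rose by 1.52 ± 0.52 with TBI, and Cr2, a complement receptor, by 1.32 ± 0.36 in sham mice. Of the B cell precursor genes, 0 of the 4 tested were called in either by edgeR or DESeq2. An unadjusted p under 0.05 was reached by 0 of the 4. By edgeR it was reached by 5211 of 18238 genes in TBI mice and 4586 in sham mice.

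Of 9 class switching and germinal centre genes tested, 0 were called with age in sham mice by edgeR or DESeq2. An unadjusted p under 0.05 was reached by 0 of the 9, against 4586 of 18238 genes by edgeR. In TBI mice 1 was higher (Mef2b, 0.99 ± 0.34) and 1 lower (Bcl6, -0.54 ± 0.19), against 9.92% and 10.3% of all genes. Among 10 signals tested, Cxcl13, which draws B cells, rose by 1.49 ± 0.31 with TBI and 1.22 ± 0.30 in sham mice, and Cxcl12, which holds plasma cells in their niches, by 0.32 ± 0.07 in each. Tgfb1, which favours IgA, fell by 0.46 ± 0.13 and 0.37 ± 0.12, and Tnfsf13b, the B cell survival factor BAFF, rose by 0.78 ± 0.24 with TBI.

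Of 10 antibody receptor genes tested, 6 were called higher and 0 lower with age in TBI mice, and 5 higher and 1 lower in sham mice. Fcer1a, the IgE-binding chain of the high-affinity receptor, rose by 0.80 ± 0.21 with TBI and 1.04 ± 0.21 in sham mice, and Fcgr4, which binds IgG2 types, by 0.90 ± 0.32 and 1.12 ± 0.31. Fcgrt, the receptor that recycles IgG, fell by 0.26 ± 0.06 in sham mice. Pigr, which carries polymeric IgA and IgM across epithelia, was too low to be tested. With injury in aged mice, edgeR called 0 of the 69 tested entries of these 7 lists, with 6 at an unadjusted p under 0.05, and DESeq2 called 1, the IgE receptor chain Ms4a2 (0.74, adjusted p = 0.0847, named after its value was seen), with 4 at that level. By edgeR, 2633 of the 18238 genes tested were at that level.

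Markers of other cells moved with age as well. The summed level of 6 marrow granulocyte precursor genes was 155 to 400.5 CPM in aged and 36.9 to 169 CPM in young libraries, with 6 of 6 called higher in TBI mice and 4 of 6 in sham mice. T cell genes rose too, with 9 of 10 called higher in TBI mice and 8 higher and 1 lower in sham mice. Of the 10 fibroblast genes, 4 were called lower and 1 higher in each comparison, with Col1a1, a collagen chain, at -1.17 ± 0.12 in TBI mice and -1.18 ± 0.12 in sham mice, and their summed levels did not overlap between ages. Their part in the antibody gene results was not tested. The 5 calls in sham mice stood at 5 without Aged Sham 3, the library high in Gh and Ibsp.

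The variable segments most correlated with each constant gene are given as descriptions over 12 libraries that fall into 2 age groups, with r within each age beside it. Among 122 segments tested, Ighv1-26 correlated most with Ighm (Pearson r = 0.94 over 12 libraries, 0.94 within aged and -0.62 within young) and also with Ighg3 (r = 0.93, 0.85 within aged and 0.62 within young), and stood at 106 CPM in Aged TBI 1 against 6.54 to 23.0 CPM in the other 5 aged libraries. Igkv19-93, next with Ighg3 (r = 0.91, 0.86 within aged and 0.62 within young), stood at 84.5 CPM in Aged TBI 1 against 2.04 to 12.01 CPM in the other aged libraries. In both, the high library was also the one high in Ighm and Ighg3.

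The segment Igkv1-117 came first with both Ighg2b (r = 0.98, 0.73 within aged and 0.85 within young) and Igha (r = 0.95, 0.29 within aged and 0.35 within young), at 7.22 to 24.7 CPM in aged and 0.581 to 1.60 CPM in young libraries. Igkv10-96, among the 2 nearest to Ighg2c (r = 0.86, -0.35 within aged and 0.98 within young), reached 3.33 CPM in Young Sham 2 against 0.858 to 1.16 CPM in the other young libraries, far below the 164 CPM of Ighg2c there. For Ighe the nearest was Ighv1-85 (r = 0.87, 0.73 within aged), at 23.9 CPM in Aged TBI 1 against 0.973 to 4.15 CPM in the other aged libraries.

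Outside the immunoglobulin loci, the genes most like the summed heavy constant level over the 12 libraries were Slc28a2, Naip5, C130026I21Rik, Gpr158, Sema5b, Spn, Col23a1 and Prrxl1, with r from 0.96 to 0.98 among 16702 genes compared. Spn encodes the leukocyte surface protein CD43 and Slc28a2 a nucleoside transporter. These libraries fall into 2 age groups, and within the 6 aged libraries r ran from -0.37 (Sema5b) to 0.90 (Slc28a2).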

How the data were processed

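Bulk messenger RNA of dorsal meninges was measured in 12 libraries. The authors used HISAT2 against mm10 for the paired-end reads, discarded duplicate and uninformative alignments with SAMtools, and deposited raw counts per gene from HTSeq. For these tools the version, annotation release and strand setting are not given in the sources used here. Dots in gene names were read as hyphens. Of the value columns, 0 were left out.

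Counts were fitted with edgeR 4.0.16 (filterByExpr, TMM, quasi-likelihood F test, 1 mean per group, all 12 libraries) and adjusted by Benjamini-Hochberg over 18238 genes at 0.1, the threshold of the study, with DESeq2 1.42.0 as an alternative. Shares and ratios of CPM were tested by exact permutation. Statistics were tested on simulated data, for edgeR with 1 spread common to all genes. The wider spread between libraries of genes such as Ighg2c and Ighg3 was not simulated. Named genes outside the 9 were in the main up to 4 called genes per list with the largest change, and those most correlated. Fcgrt and Creld2 were named as called genes that were lower. The genes and lists were chosen with earlier results of these data known. Replicate libraries are pools with no statement of separate cohorts, so p-values measure the spread between these libraries. Floors and intervals cover counting error only.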

Additional observations from a re-analysis of the deposited data

How the results depend on the processing

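The counts of genes called with injury and for the difference between ages stayed at 0 under all alternatives. With age in sham mice the count was 8 with no filter on low counts and ran from 5 to 8 when 1 library was left out, the 8 being without Aged TBI 2. With age in TBI mice it ran from 7 to 9 in the same way. DESeq2 gave 7 in sham and 8 in TBI mice, a fit of only the 2 groups compared 7 in each, and library totals without TMM 6 and 9. With the replicate block the count was 5 in sham and 7 in TBI mice, where Ighd and Ighe were lost. Library numbers do not pair the samples, since only 1 of 18 same-numbered pairs had a correlation of deviations over 0.1 and 0 libraries correlated best with their own number. Without both Young Sham 2 and Aged TBI 1, chosen after the data were seen, 7 genes were called in each. Igha, Ighm, Ighg1, Ighg2b and Jchain were called with age under every alternative in both. For Ighe with age in TBI mice, DESeq2 gave no adjusted p.

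The 9 composition measures that differed with age ran from 3 to 10 when 1 library was left out, with 3 without Young TBI 1, 2 or 3 and 5 without Young Sham 1, the cause of which was not tested. Those with injury ran from 0 to 1, the 1 being the Ighd share without Aged TBI 2. Of 17 alternatives, the Ighm share lost its call under 7, the Igha share under 8 and the ratio of IgG to Ighm under 9. The Ighg2b share and the ratio of Igha to Ighm lost theirs without Young TBI 1, 2 or 3. The summed level, the Ighd share and the Ighd to Ighm ratio passed with age under every alternative, and no called result reversed. Ighe is limited by its 0 counts in young libraries.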
